A study of Homo sapiens and Mus musculus with 36 samples.

Results

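The comparison described here asks what cyclosporin A did to gene expression in human HepaRG liver cells that were already exposed to a concentrated mixture of bile acids. The samples were chosen by their labels: 3 cultures given cyclosporin A at 20 µM with the mixture were set against 3 cultures given the mixture alone, which makes 6 of the 36 samples of the series. HepaRG is a human hepatoma line whose differentiated cultures hold cells like hepatocytes beside cells like those of bile ducts, and these were thawed from a cryopreserved differentiated stock. Every culture of both groups received the bile acid mixture at 50 times its base concentration, and exposure lasted 72 h. The composition of the mixture, and whether cells with the mixture alone also received the solvent of the drug, are not given in the sources used here. Groups from the same series that are set beside these were cells with the vehicle alone, cells with cyclosporin A at 20 µM without the mixture, and cells with the mixture and either atazanavir at 60 µM or nefazodone at 30 µM, each as 3 cultures exposed for 72 h. Both of these drugs, like cyclosporin A, are named as cholestatic in the labels. The series text speaks of 3 batches of HepaRG cells, and nothing ties a replicate number to a batch, so p-values measure the spread between these cultures.

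Hepatocytes take bile acids up from blood through the carriers NTCP and the OATPs, make them from cholesterol, conjugate them, and export them into bile through the bile salt export pump. When bile acids accumulate, nuclear receptor signalling lowers synthesis and raises the exporters of the blood-facing membrane, of which the heterodimer OSTα and OSTβ is the best known. Cyclosporin A is an immunosuppressant that binds cyclophilins and thereby blocks calcineurin, and it is also a classic inhibitor of the bile salt export pump. The unfolded protein response and the integrated stress response are the programmes by which a cell meets misfolded protein in the endoplasmic reticulum or a shortage of amino acids.

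RNA was measured on Affymetrix arrays that read the 3′ end of transcripts, and all levels are log2 values as deposited after robust multi-array average (RMA). RMA brings all arrays to one common distribution, so a rise or a fall is relative to the other genes of the array. A gene counts as changed with an adjusted p under 0.05 in limma (Benjamini-Hochberg over 19775 genes), and errors on a log2 change are standard errors (SE). Any 2 arrays of one group correlated at 0.996 or more across genes in both groups. The gap between 3′ and 5′ control probes, a sign of RNA quality or labelling, differed between the groups in opposite ways. For GAPDH it was 0.584 to 0.700 with the mixture alone and 0.448 to 0.550 with cyclosporin A, and for actin it was 1.39 to 1.55 and 1.73 to 1.88. Its part in the results was not tested. The tables carry no detection calls; the dimmest 1 in 3 genes had mean levels up to 4.27, and a fold change towards such a level is partly set by background. In lysates of whole cultures, fewer cells of a type and less RNA per cell cannot be told apart.

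Cyclosporin A changed the expression of about as many genes upwards as downwards, but the falls were deeper. With the drug, 5075 of 19775 genes were higher (25.7%) and 5033 were lower (25.5%) in limma, together 10108 (51.1%). Among these, 1376 rose at least 2-fold (6.96%) and 2023 fell at least 2-fold (10.2%), and 233 rose and 789 fell at least 4-fold. The median change over all genes was 0.01 log2. Groups did not overlap for 5814 genes higher in all 3 cultures with the drug (29.4%) and 5583 lower (28.2%). Counts of list members in this comparison are to be read beside the 25.7% and 25.5% of all genes called higher and lower.

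The largest rise was that of PNLIPRP3, a relative of pancreatic lipase, which measured 2.72, 2.66 and 2.59 with the mixture alone and 9.16, 8.87 and 8.69 with cyclosporin A (log2 change 6.25, SE 0.21). MAFF, a small Maf transcription factor of the stress response, rose from 5.51, 5.54 and 5.52 to 11.62, 11.63 and 11.43. TAC1, the precursor of substance P, rose from 5.17, 5.53 and 5.73 to 11.32, 11.28 and 11.68. All 3 genes left no overlap between the groups, and the rise was 76.2-fold, 65.7-fold and 61.9-fold, with adjusted p in limma of 7.68e-16, 1.12e-14 and 5.63e-16. IL1RL1, the receptor of interleukin 33, followed with 5.93, although its 3 other probe sets gave between -0.07 and 3.12. Further down the order came HDGFL3 at 4.98, DDIT3 at 4.84, the antisense transcript SUGCT-AS1 at 4.84, GDF15 at 4.48, ZNF165 at 4.20, ATF3 at 4.17, TNFRSF9 at 4.11 and DLGAP1-AS2 at 4.10. Signal of the antisense transcripts SUGCT-AS1 and DLGAP1-AS2 rests on the strand their probes were designed for, which was not checked.

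The deepest fall was that of CXCL13, a B cell attracting chemokine, which measured 11.98, 12.25 and 12.16 with the mixture alone and 2.55, 2.60 and 2.46 with the drug, a log2 change of -9.59 (SE 0.51, adjusted p in limma 5.44e-13). CYP2C8, a drug oxidising cytochrome, went from 10.97, 10.73 and 11.53 to 2.83, 2.53 and 2.90. SERPINA7, the thyroxine binding globulin, went from 11.10, 10.96 and 11.02 to 2.97, 3.06 and 2.64. In each case, cultures with the drug lay below the bound of the dimmest 1 in 3 genes and cultures without it were among the bright ones. FABP1, the liver fatty acid binding protein, changed by -7.71, ACSM2A by -7.43, the paraoxonase PON1 by -7.29, the scaffold PDZK1 by -7.17, PLXNC1 by -7.09, UGT2B15 by -7.07, CYP4B1 by -7.02, the potassium channel KCNJ16 by -6.98 and LINC00844 by -6.67. Other probe sets mostly fell less, with -2.07 for FABP1, -2.07 for ACSM2A, -2.03 for PON1, -0.26 for CYP2C8, -3.73 for CYP4B1 and -3.70 for KCNJ16. Those of PLXNC1 gave -3.12, -2.84 and 0.22, and those of UGT2B15 -7.53 and -0.91.

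**Figure D1:**
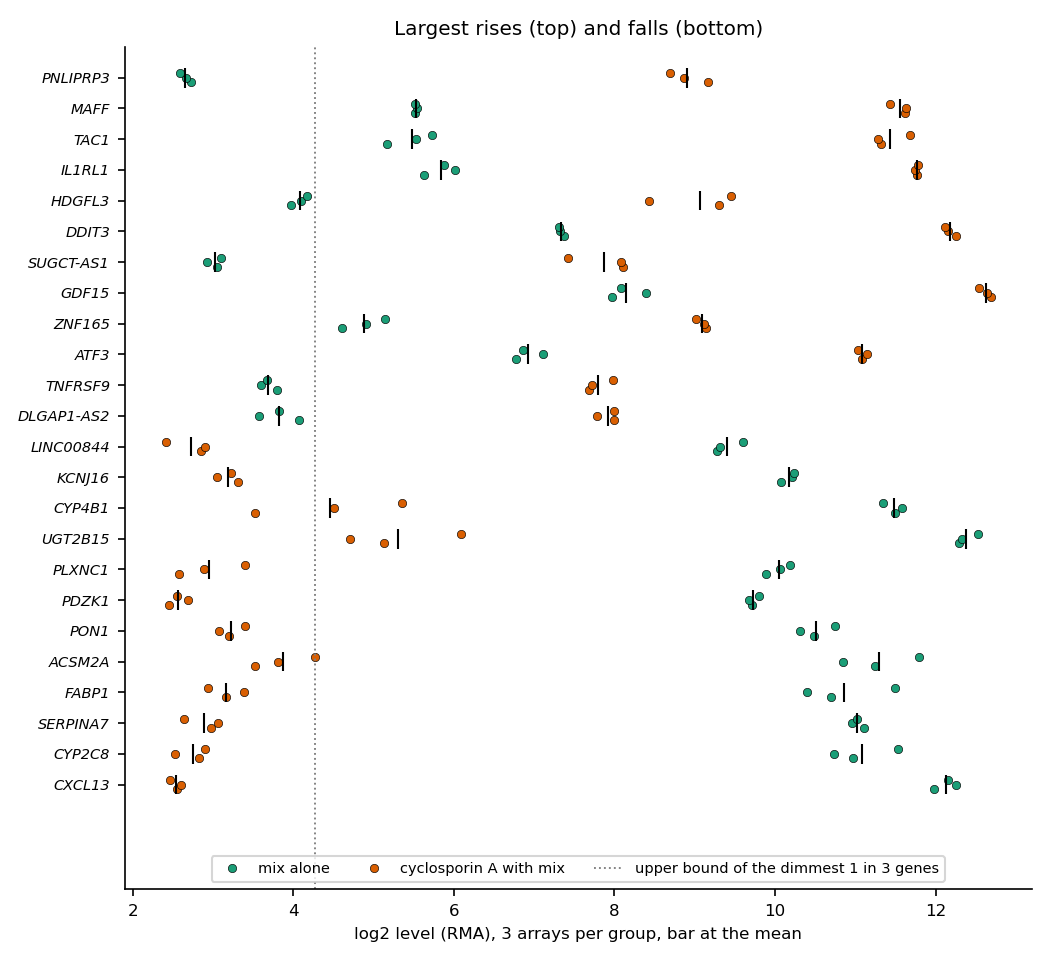
Log2 RMA level (horizontal axis) of the 12 genes with the largest rises and the 12 with the largest falls, with 1 point per culture, 3 cultures per group and a bar at the mean. In every gene the 2 groups are separate, and most of the falls end left of the dotted line at 4.27, the upper bound of the dimmest 1 in 3 genes.

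Of 5 exporters of the blood-facing membrane, 3 fell (60%) and 2 rose (40%) with cyclosporin A, against 25.5% and 25.7% of all genes. SLC51A, which encodes OSTα, measured 8.66, 8.36 and 8.81 with the mixture alone and 2.89, 2.68 and 3.19 with the drug, against 3.60 ± 0.42 (SD, n = 3) in vehicle cells. The difference was -5.69 (SE 0.26, 51.7-fold, adjusted p in limma 4.79e-14), and the drug cultures lay at the level of the vehicle cells or below it. SLC51B, which encodes OSTβ, fell from 7.17, 7.06 and 7.76 to 5.20, 4.55 and 6.12, a change of -2.04 (SE 0.30, adjusted p in limma 4.41e-06). It kept a level above the 4.01, 3.82 and 3.46 of vehicle cells in each of the 3 cultures. ABCC3, the pump MRP3, fell from 10.37, 10.37 and 10.52 to 8.53, 8.56 and 8.72, by 1.82 on the log2 scale. ABCC4, the pump MRP4, and ABCC1, the pump MRP1, rose by 0.99 and 0.79. Other probe sets gave -1.72 to -0.08 for ABCC3 and 0.17 to 0.78 for ABCC4.

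Of 10 exporters and helper proteins of the bile-facing membrane, 7 fell (70% against 25.5% of all genes), with a list median of -0.82. The other 3 rose, a share of 30% and near the 25.7% of all genes. ABCB4, the phospholipid floppase MDR3, measured 9.25, 8.94 and 9.56 with the mixture alone and 5.72, 5.62 and 5.96 with cyclosporin A (-3.48, SE 0.21). The other probe set of ABCB4 gave -1.35. ABCB11, the bile salt export pump itself, was modest in these cells and went from 5.25, 4.87 and 5.05 to 4.13, 3.89 and 4.13 (-1.01, SE 0.14, adjusted p in limma 2.41e-06), while its other probe set fell by 2.60. The drug cultures were thus below the dim bound for this pump and the mixture cultures above it. ABCG5, a subunit of the sterol exporter, fell by 3.16. In the other direction ABCG2, the breast cancer resistance protein, rose from 4.79, 4.75 and 4.78 to 8.02, 7.76 and 7.90, by 3.12 (8.69-fold). ABCC2, the conjugate pump MRP2, rose by 0.43 and ABCB1, the pump P-glycoprotein, by 0.51.

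Uptake carriers mostly fell: 6 of 8 were lower (75% against 25.5% of all genes), with a median of -1.25. SLC10A1, which encodes NTCP, measured 5.78, 4.98 and 5.59 with the mixture alone and 3.65, 3.50 and 3.63 with the drug, a change of -1.86 (SE 0.23). The organic anion carriers SLC22A7 and SLCO2B1 fell by 1.59 and 1.40, and SLCO1B1, the carrier OATP1B1, fell by 1.11. SLCO1B3 differed by 0.58 in the other direction and was the only member called higher, a count that became 2 without replicate 3 of cyclosporin A with the mixture. The 4 further probe sets of SLC22A7 ranged from -4.85 to -0.51.

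**Figure D2:**
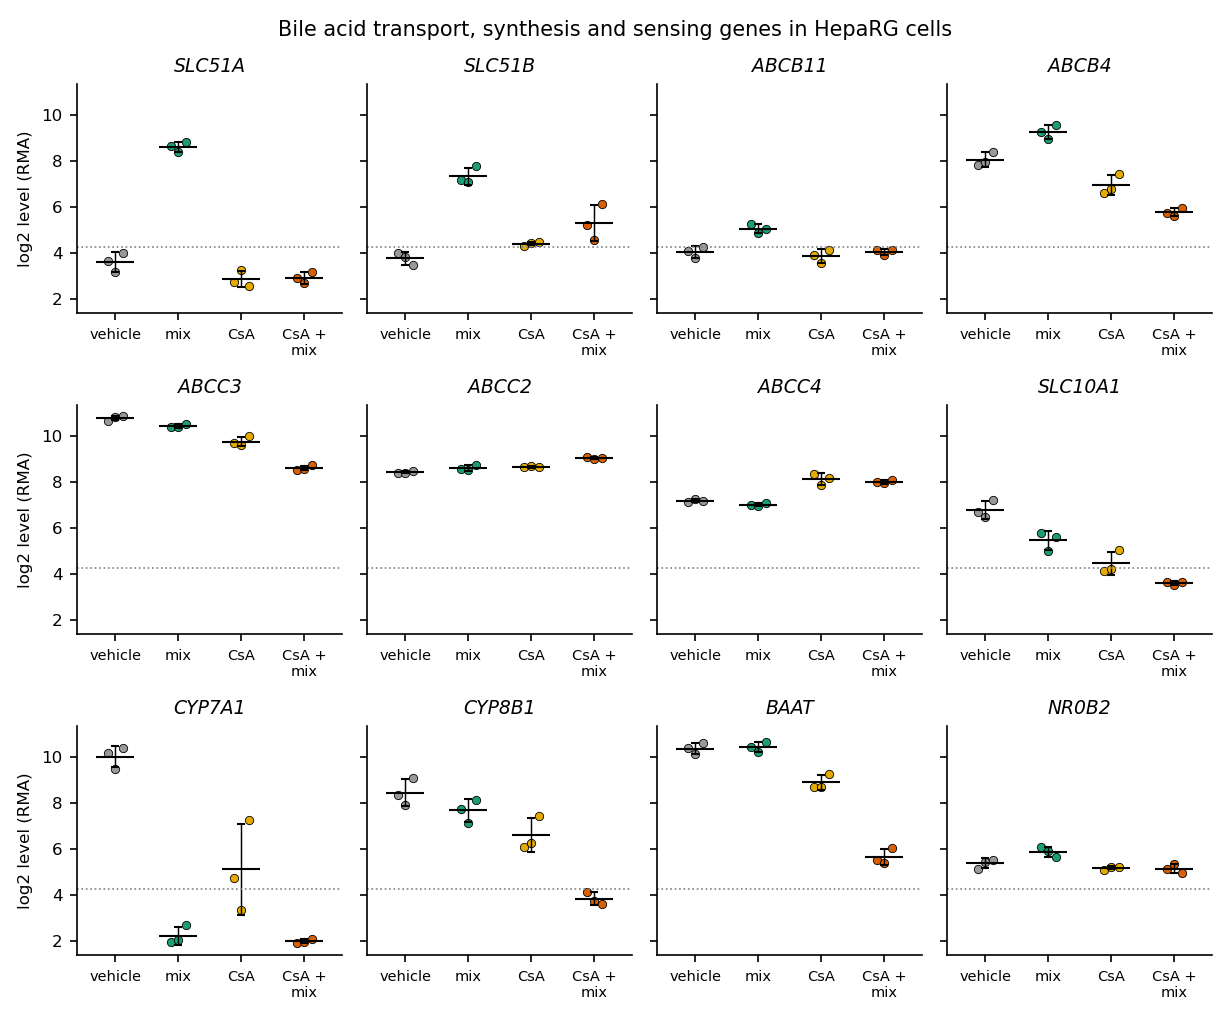
Log2 RMA levels of 12 bile acid genes in vehicle cells, cells with the mixture (mix), cells with cyclosporin A (CsA) and cells with both, with 1 point per culture, bars at the mean and whiskers of 1 SD (3 cultures per group). SLC51A is above the dotted line only in the 3 cultures with the mixture alone, CYP7A1 is at 2.68 or less in every culture with the mixture, and the dotted line marks 4.27.

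Enzymes of bile acid synthesis and conjugation fell in 7 of 12 cases (58.3% against 25.5% of all genes) and rose in 1, with a median of -0.67. BAAT, which joins bile acids to glycine or taurine, fell from 10.42, 10.20 and 10.63 to 5.51, 5.40 and 6.04 (-4.77, SE 0.23, adjusted p in limma 1.05e-13). CYP8B1, the sterol 12α-hydroxylase, fell from 7.75, 7.13 and 8.12 to 4.14, 3.75 and 3.62 (-3.83, SE 0.35). Neither gene showed any overlap between the groups. AKR1C4 fell by 2.74, while CYP39A1, an oxysterol hydroxylase, rose by 0.96. CYP7A1, the rate-limiting enzyme of the classical pathway, was already low with the mixture alone, at 1.97, 2.03 and 2.68, and measured 1.91, 1.96 and 2.07 with the drug added. Its change was -0.25 with a 95% interval from -1.36 to 0.86 (adjusted p in limma 0.741), both groups being far below the dim bound.

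Bile acid sensing genes fell in 8 of 11 cases (72.7% against 25.5% of all genes), with a median of -0.84. KLB, the co-receptor of the enterokine FGF19, fell from 5.78, 5.80 and 6.16 to 3.61, 3.04 and 3.25 (-2.61). NR5A2, the nuclear receptor LRH-1, fell by 2.55, and RXRA, the common partner of the bile acid receptors, fell from 9.01, 9.08 and 9.01 to 7.40, 7.38 and 7.27 (-1.68, SE 0.08). Other probe sets fell less, with -1.21 for KLB, -1.89, -0.54 and -0.24 for NR5A2 and -0.88 for RXRA. NR0B2, the repressor SHP that bile acids induce, fell from 6.08, 5.89 and 5.66 to 5.11, 5.36 and 4.95 (-0.73, SE 0.16, adjusted p in limma 0.000408). FGF19 itself was dim in both groups and changed by -0.13 (95% interval -0.34 to 0.08, adjusted p in limma 0.322).

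Genes of the integrated stress response rose together: 25 of 36 measured members were higher, against 25.7% of all genes, and the median was 1.12. A further 2, PCK2 at -0.84 and CBS at -0.20, were lower, a count that became 1 without replicate 1 or 2 of cyclosporin A with the mixture and without replicate 1 or 3 of the mixture alone. DDIT3, the pro-apoptotic factor CHOP, rose from 7.37, 7.32 and 7.31 to 12.26, 12.15 and 12.12, by 4.84 (SE 0.13, 28.7-fold, adjusted p in limma 3.99e-17). GDF15, a stress cytokine, rose from 7.96, 8.39 and 8.08 to 12.69, 12.64 and 12.54, and ATF3, a stress transcription factor, from 6.78, 7.11 and 6.86 to 11.08, 11.14 and 11.04. The spread within each group was small beside these differences. The other probe sets rose less for both, with 0.46 and 1.37 for GDF15 and 0.39 and 3.74 for ATF3. ATF4, the factor at the head of the programme, rose from 10.71, 10.79 and 10.73 to 12.47, 12.43 and 12.44 (1.70, SE 0.06). The pseudokinase TRIB3 rose by 3.27, the cystine carrier SLC7A11 by 3.30 and asparagine synthetase, ASNS, by 2.88 (8.79, 8.95 and 8.81 to 11.62, 11.77 and 11.79). Other probe sets gave 3.42 for TRIB3 and 3.10 and 3.86 for SLC7A11, but 0.40 for ASNS.

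The promoters of the listed genes were read for the composite element that ATF4 binds with C/EBP factors. It was searched on both strands as TTNCATCA or as TGATGNAAT, which overlap. The element lay in the 250 bases before the start of 4 of 30 members with a promoter in the RefSeq table (13.3%): ASNS, ATF3, CHAC1 and FGF21. Over all 15384 promoters in that table the share was 2.31%. Of the 4, CHAC1, a glutathione degrading enzyme, rose by 1.93, while FGF21 was dim and changed by 0.23, which passed the threshold (0.34, adjusted p in limma 0.0394) without replicate 2 of cyclosporin A with the mixture. The 2 promoters of the most strongly raised carriers of the element are shown in the direction of transcription (RefSeq, GRCh38.p14), with the matched letters in capitals. ASNS is at chr7:97872409-97872658 on the minus strand, the match beginning 68 bases before the start, and ATF3 at chr1:212565157-212565406 on the plus strand, 191 bases before it.
ASNS: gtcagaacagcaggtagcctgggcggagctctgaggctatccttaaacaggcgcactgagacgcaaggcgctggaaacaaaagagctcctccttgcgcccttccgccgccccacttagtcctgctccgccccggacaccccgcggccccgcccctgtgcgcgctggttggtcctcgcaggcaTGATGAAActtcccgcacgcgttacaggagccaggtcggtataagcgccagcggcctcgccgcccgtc
ATF3: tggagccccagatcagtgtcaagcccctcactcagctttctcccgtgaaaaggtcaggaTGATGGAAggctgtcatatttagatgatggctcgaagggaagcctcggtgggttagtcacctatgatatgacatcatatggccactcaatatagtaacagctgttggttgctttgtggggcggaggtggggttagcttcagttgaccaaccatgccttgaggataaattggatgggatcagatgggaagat
A match is a string of letters and not evidence of binding. The list was drawn from genes already assigned to this response, so its share describes the list and tests nothing.

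Every one of the 25 measured genes of the endoplasmic reticulum chaperone list rose (100% against 25.7% of all genes). Their changes lay between 0.37 and 2.73, with a median of 1.08. Besides chaperones and folding enzymes the list holds regulators of the unfolded protein response, such as the transcription factor XBP1. HSPA5, the master chaperone BiP, was already bright and rose from 11.97, 11.94 and 11.92 to 13.96, 13.87 and 14.05 (2.02, SE 0.08, 4.05-fold, adjusted p in limma 5.82e-15). Its second probe set rose by 4.24. DNAJB9, a co-chaperone of BiP, rose from 9.55, 9.63 and 9.79 to 12.39, 12.30 and 12.47, HYOU1, an HSP70 relative, from 8.77, 8.76 and 8.91 to 11.46, 11.57 and 11.47, and FKBP11, a prolyl isomerase, by 2.30. No culture with the drug overlapped with one without it in these 4 genes.

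The endoplasmic reticulum stress element is CCAAT and CCACG held 9 bases apart, read on both strands. It was found before the start of 7 of 23 genes of the chaperone list with a listed promoter (30.4%), against 16 of 15384 promoters in all (0.104%). The 7 were HSPA5, HSP90B1, CALR, CANX, CRELD2, XBP1 and ERO1B, whose changes ran from 0.61 for XBP1 to 2.02 for HSPA5. The element was found in none of the 30 listed promoters of the integrated stress response genes. Both lists were drawn from known genes, so these shares are a description and not a test. The promoters of HSPA5 and HSP90B1, the reticulum's abundant HSP70 and HSP90, are shown as above. HSPA5 is at chr9:125241344-125241593 on the minus strand with 1 match, 66 bases before the start. HSP90B1 is at chr12:103930160-103930409 on the plus strand with 2 matches, 194 and 89 bases before the start.
HSPA5: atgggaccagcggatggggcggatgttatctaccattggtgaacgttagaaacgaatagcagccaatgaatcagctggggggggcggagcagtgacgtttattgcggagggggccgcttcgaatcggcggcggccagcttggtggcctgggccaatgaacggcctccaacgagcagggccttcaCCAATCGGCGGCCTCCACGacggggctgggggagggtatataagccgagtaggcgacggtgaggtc
HSP90B1: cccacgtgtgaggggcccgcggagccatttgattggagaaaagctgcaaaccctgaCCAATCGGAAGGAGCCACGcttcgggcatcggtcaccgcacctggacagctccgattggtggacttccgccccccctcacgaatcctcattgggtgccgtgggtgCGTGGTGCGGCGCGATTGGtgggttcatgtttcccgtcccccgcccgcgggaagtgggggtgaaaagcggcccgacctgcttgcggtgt
HSP90B1 itself rose from 11.27, 11.35 and 11.26 to 12.73, 12.86 and 12.80, by 1.51.

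Other arms of protein handling moved the same way. Genes that retrotranslocate and degrade misfolded protein rose in 18 of 23 cases, led by HERPUD1 at 2.14, and by UFD1 and NPLOC4, the partners of the p97 ATPase, at 1.76 and 1.73. A further 4 fell, a count of 2 without replicate 2 of either group. They were CREB3L3 at -1.54, CREB3L2 at -0.29, EDEM2 at -0.25 and RNF139 at -0.17. The other probe set of HERPUD1 gave 0.59. Transport between endoplasmic reticulum and Golgi rose in 33 of 37 genes with a median of 0.70, among them SEC61A1, the translocon pore, at 1.40 and SRPRB, the anchor of the signal recognition particle receptor, at 1.40. The exceptions that fell were KDELR3 at -0.91 and KDELR1 at -0.38, receptors that return escaped chaperones. Aminoacyl-tRNA synthetases, which charge transfer RNAs, rose in 16 of 17 cases with a median of 1.40. WARS1 rose from 7.72, 7.74 and 7.58 to 10.36, 10.37 and 10.41 (2.69, SE 0.07), YARS1 by 2.21 and GARS1 by 2.13, and VARS1 at 0.12 did not pass. In this list the ATF4 element was in the promoters of 2 of 14 genes (14.3%), AARS1 at 1.76 and IARS1 at 1.66.

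**Figure D3:**
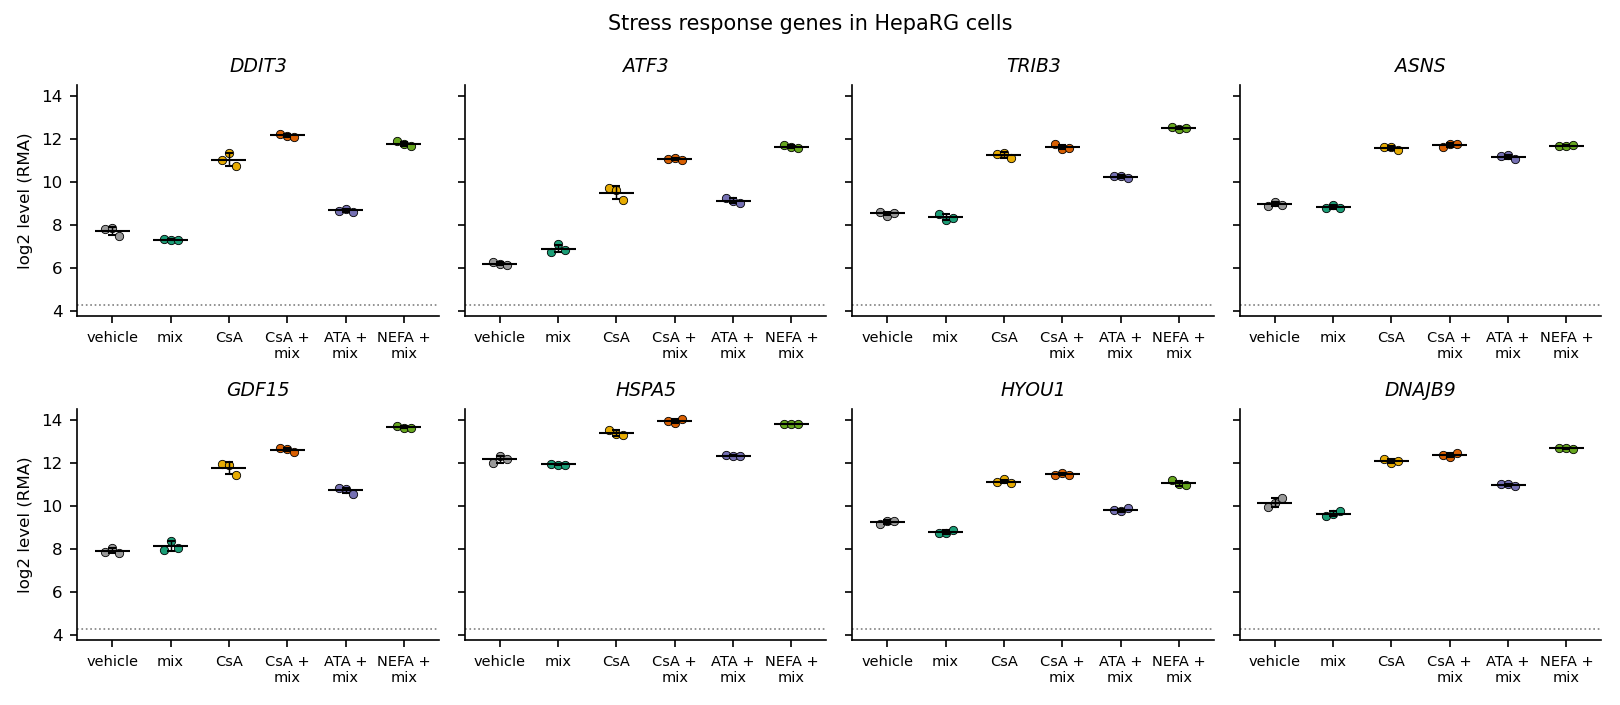
Log2 RMA levels of 8 stress response genes in vehicle cells, cells with the mixture (mix), with cyclosporin A (CsA), with both, and with the mixture and atazanavir (ATA) or nefazodone (NEFA), with 1 point per culture, bars at the mean and whiskers of 1 SD (3 cultures per group). In each gene the 3 cultures with cyclosporin A and the mixture lie above the 3 with the mixture alone, and for DDIT3 they are also the highest of the 6 groups, at 12.12 to 12.26.

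Cytosolic and mitochondrial heat shock proteins rose in 17 of 21 cases with a median of 0.74. HSPB8, a small heat shock protein, rose from 9.74, 9.93 and 9.62 to 11.64, 11.62 and 11.56, and DNAJB1 rose by 1.71. CRYAB, which encodes αB-crystallin, and HSPB1 fell, by 2.70 and 0.98. Genes of autophagy and the lysosome rose in 20 of 28 cases and fell in 4 (median 0.53). GLA, a lysosomal galactosidase, rose from 8.05, 8.09 and 8.10 to 10.99, 11.07 and 10.95, NPC1, the lysosomal cholesterol exporter, by 2.88, and GABARAPL1, an autophagosome protein, by 2.69. The other probe sets of NPC1 gave -0.06, 0.78 and 1.90. TFEB, the main transcription factor of lysosomal genes, fell by 1.15. Targets of the antioxidant factor NRF2 split, with 10 of 24 higher (41.7% against 25.7% of all genes) and 11 lower (45.8% against 25.5%). MAFG rose by 2.47, SRXN1, sulfiredoxin, by 1.99 and HMOX1, haem oxygenase, by 1.57, from 7.59, 7.51 and 7.61 to 9.12, 9.26 and 9.04.

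Genes of the cyclophilin family rose in 10 of 17 cases (58.8% against 25.7% of all genes) and fell in 3 (17.6% against 25.5%). Whether the protein of each listed gene binds the drug was not examined. PPIA, the major cytosolic cyclophilin A, was among the brightest genes and fell slightly, from 13.51 ± 0.03 to 13.04 ± 0.06 (SD, n = 3 each; change -0.47, SE 0.06, adjusted p in limma 5.63e-07). PPIB, the cyclophilin of the endoplasmic reticulum, rose from 12.10, 12.20 and 12.23 to 12.65, 12.58 and 12.73 (0.48, SE 0.07). These are differences of under 1.5-fold without overlap. The other probe set gave -0.08 for PPIA and 0.66 for PPIB. PPIL6 rose by 1.81, PPID by 1.10, and PPIC fell by 1.57. For PPIL6 the other probe sets gave 0.08 and 0.24, and for PPID -1.27 and 1.28, which is of both signs. Among calcineurin and NFAT genes 5 of 19 rose and 5 fell (26.3% each), shares near the 25.7% and 25.5% of all genes. The catalytic subunit PPP3CC rose by 1.35 and NFAT5 by 0.96, while RCAN3, a calcineurin regulator, fell by 1.31. Other probe sets gave 0.17 to 1.21 for PPP3CC, 0.87 and 0.95 for NFAT5, and -0.80 and -0.61 for RCAN3. RCAN1, a standard readout of calcineurin activity, changed by -0.32 (adjusted p in limma 0.0109). Its other probe sets gave 0.09 and 0.10, and the call was lost without replicate 3 of cyclosporin A with the mixture (-0.26, adjusted p in limma 0.0634).

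Drug metabolism fell on both of its arms. Of 28 oxidising enzymes 18 fell (64.3% against 25.5% of all genes), with a median of -1.11. A further 3 rose, ALAS1 at 0.93, CYP1A1 at 0.69 and ALDH2 at 0.25, a count of 1 without replicate 2 of either group. Without these, CYP1A1 was at 0.59 and 0.63. CYP3A4, the main drug oxidising enzyme of liver and the one that clears cyclosporin A, measured 10.31, 9.95 and 10.77 with the mixture alone and 5.78, 5.95 and 5.98 with the drug (-4.44, SE 0.38, adjusted p in limma 1.09e-09). Its other probe sets gave -5.01, -1.50, -0.71 and 0.21. The alcohol dehydrogenases ADH1A and ADH1B fell by 6.63 and 6.26, and CYP2B6 fell by 1.20 to below the dim bound. Other probe sets gave -7.26, -5.81 and 0.10 for ADH1B and -0.34 for CYP2B6. Of 20 conjugating enzymes 16 fell (80%), with a median of -1.16. UGT2B4, a glucuronosyltransferase, fell from 11.91, 12.05 and 12.60 to 5.54, 5.03 and 6.13, and SULT2A1, which sulfates bile acids and steroids, from 9.54, 9.08 and 9.84 to 2.93, 2.99 and 2.98. Probes for the near-identical members of the ADH1, UGT2B and CYP3A families can bind more than 1 of them.

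All 13 measured hepatocyte markers fell, with a median of -3.05, and their summed linear level went from between 67614 and 78345 per culture to between 15547 and 21845. With the mixture alone, 13 of the 13 lay above the dim bound, and with the drug 10 did. ALB, serum albumin, stayed bright and fell from 14.07, 14.25 and 14.27 to 12.65, 12.54 and 12.87 (-1.51, SE 0.10), while other probe sets for it fell by 0.46, 2.82 and 6.45. ARG1, arginase, fell from 9.60, 8.99 and 10.24 to 3.89, 3.48 and 3.78, whereas its 3 other probe sets gave -0.11, 0.00 and 0.13. AHSG, fetuin-A, fell by 5.15, and its other probe set gave -2.23. Of 16 hepatocyte transcription factors, 15 fell, PROX1 most, from 9.45, 9.63 and 10.09 to 6.30, 6.23 and 6.45, followed by NR5A2 and by ONECUT1 at -1.79. CEBPB, at 0.33, was the exception that rose.

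Proteins that the liver secretes into plasma followed the same direction. Complement and coagulation genes fell in 36 of 42 cases (median -1.73), with KNG1, kininogen, at -6.39, F13B at -5.38 and the complement component C6 at -5.12. The one that rose, F7 at 0.30, did not pass without replicate 2 of either group. Carrier proteins fell in 22 of 26 cases (median -2.84), while IGFBP1 at 3.36 and AFP, the fetal albumin, at 1.84 rose. Acute phase genes fell in 13 of 17 cases. HP, haptoglobin, fell from 11.94, 11.87 and 12.64 to 6.65, 6.72 and 7.48, and ORM1, orosomucoid, by 2.83. LCN2, lipocalin 2, went the other way, from 5.46, 5.27 and 5.18 to 8.46, 8.52 and 8.46 (3.17, SE 0.15), as did SOCS3 at 0.71.

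The biliary and ductular list, which HepaRG cultures do hold, fell in 7 of 15 cases (46.7% against 25.5% of all genes) and rose in 2, with a list median of -0.11. Its summed linear level, to which bright genes contribute most, went from between 10973 and 12540 to between 1573 and 1661. SOX4 fell from 11.23, 11.31 and 11.36 to 6.86, 6.77 and 7.36, CD24 by 3.89 and KRT19 by 3.80, while SOX9 and KRT7 rose by 0.98 and 0.99. Other probe sets gave -4.02 to -0.23 for SOX4, -3.96 to -1.98 for CD24 and -0.57 for KRT19. In the stellate and fibroblast list, 5 of 15 fell (33.3% against 25.5% of all genes, list median 0.04). The deepest falls were COL3A1 (9.39, 8.69 and 9.47 to 3.14, 3.25 and 2.70), LUM at -5.52 and DCN at -3.21. Other probe sets gave -5.46 to 0.10 for COL3A1, -1.30 for LUM and -3.62 to 0.06 for DCN. The summed level of this list went from between 2853 and 3704 to between 827 and 862. Macrophage markers summed to 199 to 206 and 175 to 203, and 3 of 13 lay above the dim bound in each group. In the lymphocyte and neutrophil list 3 of 15 fell, 20% against 25.5% of all genes, and 1 rose, with a list median of -0.09. This list summed to 1474 to 1556 and 326 to 337, and its deepest falls were S100A8, from 9.66, 9.81 and 9.87 to 3.57, 3.81 and 3.67, and S100A9, at -3.75. The other probe set of S100A8 gave -0.91. What part these lists have in the other results was not tested.

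Metabolic genes fell broadly. Among genes of the urea cycle and amino acid breakdown 18 of 23 fell, with a median of -2.39. TDO2, which opens tryptophan breakdown, fell from 12.66, 12.56 and 12.82 to 8.44, 8.29 and 8.58, and the amino acid carrier SLC38A4 changed by -4.01. Other probe sets gave -1.83 for TDO2 and -0.82 for SLC38A4. Of 25 fatty acid oxidation genes 24 fell (median -0.87), with EHHADH at -2.69 and ACAA1 at -2.52 after FABP1. Genes of fatty acid synthesis and lipid droplets fell in 22 of 28 cases (median -1.10). GPAM, the first enzyme of triglyceride synthesis, fell from 10.58, 10.79 and 10.90 to 6.47, 6.47 and 6.87, PNPLA3 by 2.89 and CIDEB by 2.78, while HILPDA at 0.60 and LPIN1 at 0.30 rose. Lipoprotein assembly fell in 12 of 17 cases. MTTP, the microsomal triglyceride transfer protein, fell from 8.68, 8.56 and 9.20 to 2.84, 3.03 and 2.76, and the apolipoproteins APOA2 and APOC3 fell by 6.15 and 5.59. Other probe sets gave -4.54 for APOA2 and -1.46 for APOC3. Cholesterol synthesis fell less, in 11 of 19 cases with a median of -0.30, with TM7SF2 at -2.52 and EBP at -1.85. Glucose metabolism fell in 15 of 26 cases, SLC2A2, the glucose carrier GLUT2 of hepatocytes, from 8.50, 8.50 and 8.71 to 2.57, 2.35 and 2.55 and the glycogen synthase GYS2 by 2.64, while the hexokinase HK1, which hepatocytes normally keep low, rose from 4.57, 4.90 and 4.98 to 7.29, 7.57 and 7.35. Subunits of the respiratory chain fell in 25 of 37 cases but by less, with a median of -0.40 and ATP5F1B, the catalytic subunit of ATP synthase, at -1.52 as the deepest.

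The cell cycle genes fell almost as a block, 40 of 43, with a median of -2.34. KIF20A, a kinesin of cell division, fell from 7.85, 7.94 and 8.12 to 2.74, 2.67 and 2.93 (-5.19, SE 0.14, adjusted p in limma 4.87e-17), CDK1, the mitotic kinase, from 9.29, 9.43 and 9.60 to 4.69, 4.44 and 4.39, and RRM2, a ribonucleotide reductase subunit, by 4.92. No member rose, or 1 without replicate 1 of cyclosporin A with the mixture. The remaining 3 did not pass: RRM1 at 0.06, CCNE1 at 0.17 and CCNB2 at 0.19. Among extracellular matrix genes 22 of 41 fell (53.7% against 25.5% of all genes), led by COL3A1, LUM and SPARC (-4.31). Among genes of TGF-β signalling 22 of 28 fell (78.6%), led by ID3 at -2.81, CCN2 at -2.60 and FST at -2.55. Contact proteins fell in 11 of 20 cases (55%) and rose in 5 (25%), the last a share near the 25.7% of all genes. E-cadherin (CDH1) fell from 8.57, 8.56 and 8.99 to 5.21, 5.01 and 6.12, cingulin (CGN) by 3.18 and connexin 32 (GJB1) by 2.64. The other probe set gave -0.56 for CDH1 and -2.85 for CGN.

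Of 34 cytokines and chemokines 8 rose (23.5%) and 9 fell (26.5%), shares near those of all genes. IL6 rose from 4.74 ± 0.25 to 7.24 ± 0.21 (SD, n = 3 each), by 2.49 with an SE of 0.24, whereas CXCL10, an interferon induced chemokine, fell from 7.22, 7.50 and 8.07 to 4.74, 4.53 and 5.67, and TNFSF10, the death ligand TRAIL, by 3.76. CXCL8, the neutrophil attractant interleukin 8, measured 7.82, 8.18 and 8.45 with the mixture alone and 9.11, 8.96 and 9.09 with the drug (0.91, adjusted p in limma 0.00839), a call that was lost without replicate 1 of the mixture alone (0.74, adjusted p in limma 0.0514). NF-κB and adhesion genes rose in 11 of 20 cases (55% against 25.7% of all genes, median 0.41), with TRAF1 at 1.96 and RELB at 1.49. The 1 that fell was CD83 at -0.40, a count of 0 to 2 without replicate 1 or 3 of cyclosporin A with the mixture or replicate 3 of the mixture alone.

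Lists of growth arrest, death and early response had calls in both directions. Of 22 p53 targets 9 rose (40.9% against 25.7% of all genes) and 8 fell (36.4% against 25.5%), with GADD45A at 1.91 and PLK3 at 1.87 after GDF15. The other probe sets of PLK3 gave 0.25 and 0.44. Among 28 regulators of cell death 10 rose (35.7%) and 11 fell (39.3%), with the BH3 protein PMAIP1 (NOXA) at 2.07, the TRAIL receptor TNFRSF10A at 1.95 and the inflammatory caspase CASP4 at 1.80. Of 24 immediate early genes 11 rose (45.8%), with KLF2 at 2.96 and MYC at 2.61 after MAFF, and 5 fell (20.8%), a share below that of all genes. The other probe set of KLF2 gave 0.32. Metallothioneins and zinc carriers fell in 3 of 13 cases (23.1%) and rose in 2 (15.4%), neither share above that of all genes: SLC30A10, a manganese exporter, at -3.49, MT1E at -1.21 and SLC39A10 at -0.77 among those lower, and SLC39A14 at 0.57 and MTF1 at 0.53 among those higher.

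**Figure D4:**
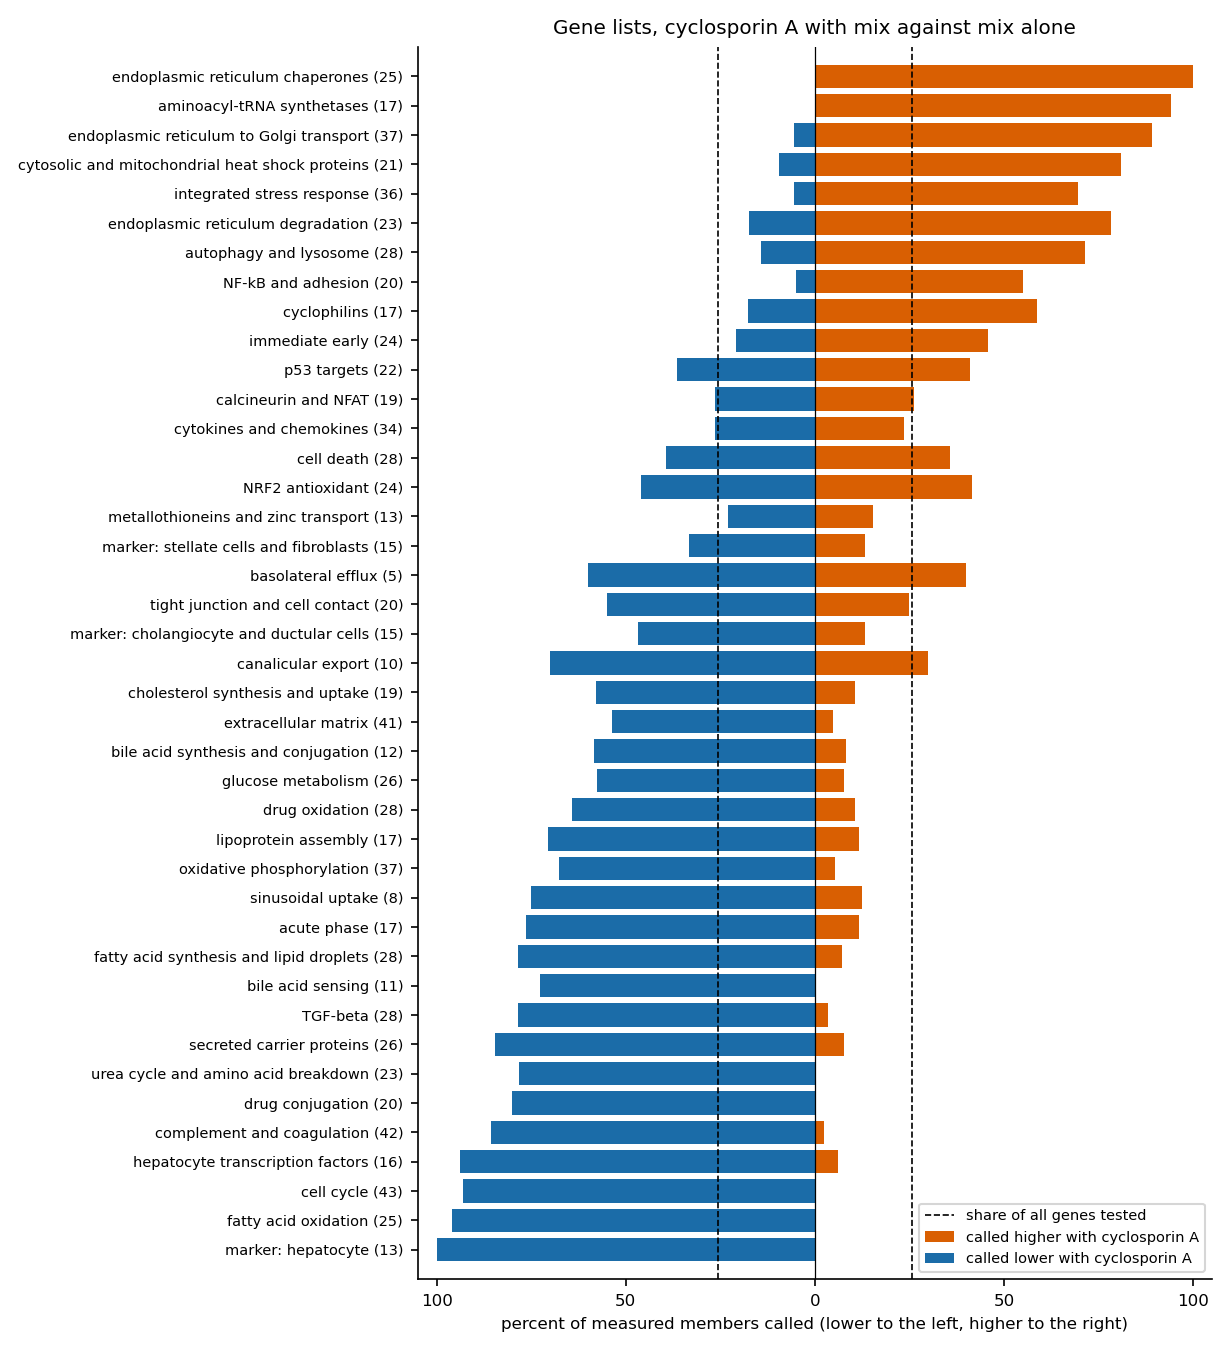
Percent of the measured members of each gene list (number in brackets) called higher (right) or lower (left) by limma at an adjusted p under 0.05 with cyclosporin A and the mixture against the mixture alone, with dashed lines at the shares of all genes, 25.7% and 25.5%. Endoplasmic reticulum chaperones (25 of 25 higher) and hepatocyte markers (13 of 13 lower) stand at the ends.

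Cyclosporin A without the mixture, measured against vehicle cells on 6 other arrays, changed 8061 genes (40.8%), 4397 higher (22.2%) and 3664 lower (18.5%), of which 574 (2.9%) and 983 (4.97%) by at least 2-fold. Most calls shared their direction: 6638 genes were called in both comparisons and 6429 of those had the same direction, which is 63.6% of the calls with the mixture and 79.8% of those without. Across the 19775 genes, which are not independent replicates, the changes correlated at r = 0.833 (Spearman 0.739). The difference between the 2 effects, tested as an interaction in limma, passed for 5112 genes (25.9%), 2155 positive (10.9%) and 2957 negative (15%), and at least 2-fold for 271 (1.37%) and 921 (4.66%). By the signs and sizes of the fitted changes, whether called or not, the effect was in the same direction and larger with the mixture in 3503 of these 5112 genes, in the same direction and smaller in 315, and in opposite directions in 1294. Cultures with cyclosporin A alone varied more than the other groups, with root mean square distances of 0.288 to 0.351 log2 between arrays against 0.219 to 0.229 for cyclosporin A with the mixture.

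Both subunits of OST had a negative interaction. SLC51A fell by 0.75 with the drug alone and by 5.69 with the mixture, a difference of -4.95 (SE 0.37, adjusted p in limma 5.45e-09), and SLC51B changed by 0.64 and -2.04, a difference of -2.68. BAAT and ABCB4 fell more with the mixture by 3.31 and 2.37. Of 16 hepatocyte transcription factors 10 had a negative interaction, as had 14 of 26 carrier proteins, 11 of 23 genes of the urea cycle and amino acid breakdown and 9 of 20 conjugating enzymes, against 15% of all genes. Respiratory chain subunits counted 19 of 37, or 12 without replicate 2 of the mixture alone or without replicate 3 of cyclosporin A alone. On the rising side, 16 of 25 genes of the reticulum chaperone list had a positive interaction against 10.9% of all genes, or 10 without replicate 3 of the vehicle cells. So had 13 of 36 integrated stress response genes. DDIT3 rose by 3.30 without and by 4.84 with the mixture. For asparagine synthetase (ASNS) the difference was 0.27 and did not pass (adjusted p in limma 0.0685).

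The cell cycle list was lower by about as much either way, with 40 of 43 members called lower in both comparisons and medians of -2.67 without and -2.34 with the mixture. CYP7A1 had an interaction of 4.64. It fell by 4.89 with the drug alone, from 10.16, 9.49 and 10.36 in vehicle cells to 4.73, 3.36 and 7.24, and was below the dim bound in every culture with the mixture. SLC10A1 fell by 2.32 without and 1.86 with the mixture, a difference of 0.46 whose 95% interval ran from -0.21 to 1.13.

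**Figure D5:**
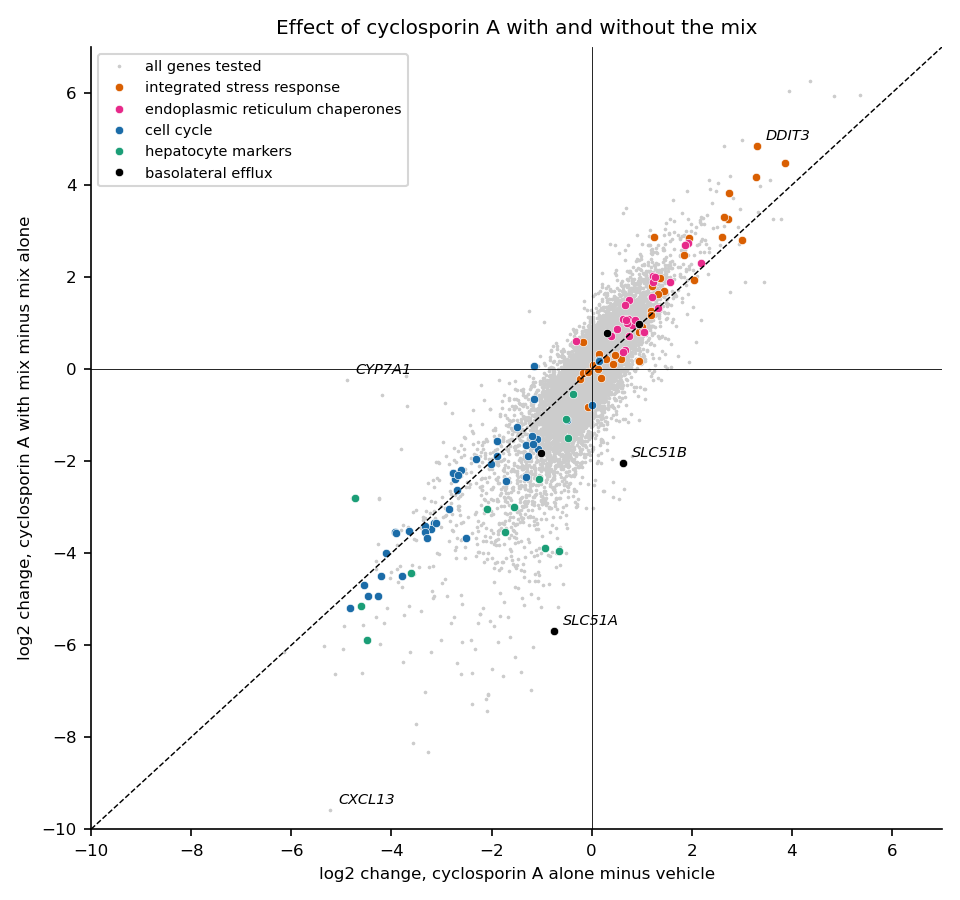
Log2 change by cyclosporin A with the mixture (vertical axis) against its change without the mixture (horizontal axis) for all genes (grey) and members of 5 gene lists, with a dashed line where both are equal. Cell cycle genes lie along the line, and SLC51A lies far below it, with -5.69 against -0.75.

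Atazanavir and nefazodone with the same mixture were given at other doses, so their values are set side by side. The direct contrasts share the 3 arrays of cyclosporin A with the mixture. Against atazanavir with the mixture 9397 genes passed in limma (47.5%), and against nefazodone with the mixture 8089 (40.9%). SLC51A measured 7.94, 7.55 and 8.36 with atazanavir and 5.54, 5.53 and 6.46 with nefazodone, against 2.89, 2.68 and 3.19 with cyclosporin A, differences of -5.03 and -2.93. SLC51B stood at 7.07, 6.90 and 7.58 with atazanavir and at 7.20, 6.87 and 8.04 with nefazodone, against 5.20, 4.55 and 6.12 with cyclosporin A. ABCC2 was higher with cyclosporin A than with atazanavir by 1.49 and than with nefazodone by 1.32. ALB was lower than with atazanavir by 1.26 on the log2 scale and than with nefazodone by 1.09.

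DDIT3 measured 8.67, 8.77 and 8.64 with atazanavir and 11.90, 11.75 and 11.70 with nefazodone, so that cyclosporin A was higher by 3.49 and by 0.39 (adjusted p in limma 5.08e-15 and 0.0203). ASNS differed from nefazodone by 0.02 (95% interval -0.13 to 0.18) and HSPA5 by 0.14 (-0.02 to 0.31), while TRIB3 and GDF15 were lower than with nefazodone by 0.88 and 1.06 on the log2 scale. Of all genes, 23.6% were higher and 23.9% lower than with atazanavir, and 18.5% higher and 22.4% lower than with nefazodone. Of the 25 genes of the reticulum chaperone list, 20 were higher than with atazanavir, and 7 were higher and 6 lower than with nefazodone, the last a share near that of all genes. Of 36 integrated stress response genes, 18 were higher and 4 lower than with atazanavir (median 0.25), but 5 were higher and 15 lower than with nefazodone (median -0.22). Against nefazodone, 11 of 23 genes of reticulum degradation and 17 of 37 of transport to the Golgi were also lower. The cell cycle list was lower than with either, in 42 of 43 genes against atazanavir (median -3.36) and in 31 of 43 against nefazodone (median -0.78).

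Genes called the same way against the mixture alone, against atazanavir and against nefazodone numbered 1892 higher (9.57%) and 2081 lower (10.5%). Ordered by their change against the mixture alone, the leading rises were PNLIPRP3, TAC1, DDIT3, SUGCT-AS1, ZNF165, DLGAP1-AS2, ZFAND2A and IGF2BP3. PNLIPRP3 measured 3.02, 2.31 and 2.75 with atazanavir and 4.14, 3.85 and 3.90 with nefazodone, all far below the 8.69 to 9.16 of cyclosporin A. ZFAND2A, an arsenite inducible regulator of the proteasome, rose from 8.20, 8.12 and 8.29 to 12.27, 12.17 and 12.29, which was 3.51 above atazanavir and 0.49 above nefazodone. IGF2BP3, an oncofetal RNA binding protein, was 2.61 and 3.66 above them. The leading falls were CXCL13, PON1, PDZK1, CYP4B1, PALMD at -6.60, KNG1, GPM6B at -6.37 and ADH1B. CXCL13 measured 8.67, 8.90 and 9.64 with atazanavir and 5.51, 5.62 and 5.91 with nefazodone, and 2.46 to 2.60 with cyclosporin A.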

How the data were processed

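Per the submitters' processing notes, the authors normalized the Affymetrix arrays with RMA and deposited log2 values. Microarray probe sets were named through the platform annotation, and of 54675 probe sets 41091 had 1 symbol, 1801 several and 11721 none. Each of 19775 genes was read by its single-symbol probe set with the highest mean over the 24 HepaRG arrays. Of these genes, 10523 had more than 1 such probe set, and values of the other probe sets are given for only some named genes. All 8 HepaRG groups of 3 arrays entered 1 group-means model in limma 3.58.1 (lmFit and eBayes, R 4.3.3), 2-sided, with Benjamini-Hochberg adjustment and a threshold of 0.05. The drug's effect with and without the mixture was compared as an interaction. The number of arrays limits precision. The fit was tested on simulated data. Mouse arrays were not used.

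The samples, gene lists and comparisons were chosen with earlier results of these data known. Named genes were the 12 largest changes each way, the 5 largest interactions each way, up to 3 called members of each list with the largest change, fixed genes of bile acid handling and stress, and the 8 leading genes each way called against all 3 mixture groups. Others named, such as exceptions within a list, were chosen after their values were seen.

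Same-numbered arrays of the 2 groups deviated together, with correlations of 0.135, 0.120 and 0.113, all over 0.1, and the series text speaks of 3 batches. The numbers were therefore taken to pair these samples, although no label says so and the correlations are weak. The main fits nevertheless had no block, and a fit with the replicate number as a block was an alternative. The other alternatives were the groups of the contrast alone, median centring, a second quantile normalization, leaving out the dimmest 1 in 3 genes, the mean of all probe sets, a mean-dependent prior, a threshold of 0.01 and leaving out each replicate.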

Additional observations from a re-analysis of the deposited data

Results flagged for a closer look

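By the interaction test in limma, the effect of cyclosporin A differed with and without the mixture in the 17 genes given here. These are the 5 largest differences each way and the fixed genes of bile acid handling and stress called with a difference of at least 2-fold. Fixed genes called with a smaller difference, such as GDF15 at 0.62 and PPIA at -0.34, are not listed. Each difference is given as the log2 effect with the mixture minus the effect without it. Positive differences were found for CYP7A1 at 4.64 (-0.25 with, -4.89 without), CRP at 3.63 (-0.56 and -4.19), the complement component C9 at 3.57 (-0.14 and -3.72) and ADH4 at 2.88 (-0.81 and -3.69). CYP7A1, CRP and C9 were below the dim bound of 4.27 in every culture with the mixture alone, so a fall with the drug could hardly be measured there and the size of their difference is set in part by background. Other probe sets of ADH4 gave -3.07, -0.07 and -0.02 with the mixture. The call for ADH4 with the mixture was lost without replicate 3 of the mixture alone (-0.60, adjusted p in limma 0.0693). PAX8-AS1 rose more with the mixture, by 2.80 (3.49 and 0.70), as did DDIT3, by 1.54 (4.84 and 3.30), but the other probe sets of PAX8-AS1 gave 0.06 and 0.27 with the mixture.

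Negative differences were found for KCNJ16 at -5.76 (-6.98 and -1.22), ACSM2A at -5.33 (-7.43 and -2.10), CLRN3 at -5.19 (-6.59 and -1.40), PDZK1 at -5.06 (-7.17 and -2.10) and CYP2C8 at -5.05 (-8.32 and -3.28). Among bile acid genes they were -4.95 for SLC51A, -2.68 for SLC51B, -2.37 for ABCB4 and -1.98 for CYP8B1, and for albumin (ALB) the difference was -1.03. SLC51A and SLC51B were below the dim bound in every culture of vehicle cells, so the size of their difference is set in part by background. CXCL8 differed by 1.07 (adjusted p in limma 0.0478). Its call was lost with the replicate block (adjusted p in limma 0.052) and without any one of replicates 1, 2 and 3 of cyclosporin A with the mixture, 1 and 2 of the mixture alone, 2 and 3 of cyclosporin A alone, or 2 and 3 of the vehicle cells (0.88 to 1.12).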

How the results depend on the processing

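With the replicate block, 10148 genes were called between cyclosporin A with the mixture and the mixture alone, 5094 higher and 5054 lower, of which 10033 were among the 10108 called without it. The other settings gave 8707 (threshold of 0.01) to 10271 (second quantile normalization), and leaving out 1 replicate gave 9570 to 9722, with 4793 to 4904 higher and 4753 to 4818 lower. The interaction gave 5289 with the block, although the number did not pair cyclosporin A alone with vehicle cells (same-numbered correlations -0.20, 0.04 and 0.19), and 4435 to 5731 on leaving out 1 replicate. For cyclosporin A without the mixture those counts were 7221 to 8264, against atazanavir 8644 to 8886 and against nefazodone 7352 to 7569. Other settings lowered some counts further. With only the groups of the contrast fitted, the interaction gave 4052 genes, against 5112 in the main fit. Cyclosporin A without the mixture then gave 6062, against 8061. At a threshold of 0.01 these 2 counts were 3448 and 6362, and those against atazanavir and nefazodone were 7875 and 6397. Of the values of named genes with the mixture, 2326 kept direction and side of the threshold, 12 lost the call and 2 gained it, for the interaction 2409 kept them and 104 lost the call, while 5961 list counts stayed within 1.5 times and 575 moved further. CRP passed when only the groups of the contrast were fitted (adjusted p in limma 8e-04). Averaging probe sets ended the calls of CD163 (-0.17) and RCAN1 (-0.04). The call for CD14 was lost without replicate 2 of cyclosporin A with the mixture (-0.45) or replicate 3 of the mixture alone (-0.56). The causes were not tested.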
